A study of Mus musculus with 6 samples.

Results

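The genes described here are 9 members of the YAP-TEAD pathway, of 24062 genes in the count table. Members were chosen by their symbols, with earlier results of these data known. The 9 are the co-activator genes Yap1 and Wwtr1 (which encodes TAZ), the DNA-binding partner gene Tead1, and the target genes Ctgf, Cyr61, Ankrd1, Axl, Amotl2 and Lats2. All 9 passed the filter on low counts. RNA was sequenced from NIH3T3 cells, an established mouse fibroblast line. The groups were cells with SPT6 siRNA and IFN-beta (2 libraries), control siRNA and IFN-beta (2), SPT6 siRNA untreated (1) and control siRNA untreated (1). Every group carried a transfected siRNA for 48 h, and IFN-beta was given at 100 units/ml for 4 h. SPT6 is a histone chaperone and transcription elongation factor. The labels say only SPT6 siRNA, and not whether it was a single sequence or a pool. Effects of this siRNA other than on SPT6 cannot be told apart. The untreated libraries are titled 0 h, so the 4 h and IFN-beta cannot be told apart either.

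In the Hippo pathway, the kinases MST1 and MST2 with their partner SAV1 activate LATS1 and LATS2, which phosphorylate YAP and TAZ and hold them out of the nucleus. Unphosphorylated YAP and TAZ enter the nucleus and act through TEAD proteins, since they do not bind DNA themselves. In fibroblasts the pathway is known for its response to cell density, stiffness and actin tension. Its classic targets include the secreted matricellular proteins CTGF and CYR61, and several targets (AMOTL2, LATS2) act back as inhibitors. RNA counts do not measure phosphorylation or location of YAP and TAZ.

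TEAD proteins are known to bind the sequence GGAATG, also called the MCAT element when read as CATTCC. Promoter windows from 250 bases before to 50 after an annotated start were available from RefSeq (GRCm38.p6) for 7 of the 9 genes, in 9 windows. GGAATG, on either strand, was found in 8 of these 9 windows, with at least one in each of the 7 genes, and in 14.7% of 32851 windows of all genes. The windows of the 2 Wwtr1 starts overlap and share one match. The second Lats2 window held no match. No window was available for Ctgf and Tead1, so whether their promoters hold the sequence was not examined. The sites are shown for the 7 genes with a window. Each is given in 30 bases, read on the strand that shows GGAATG, which is in capitals, with the position of the match relative to the start site, counted along the gene.
Cyr61, chr3:145650071-145650100, plus strand, at -103: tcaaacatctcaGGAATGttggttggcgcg
Ankrd1, chr19:36120037-36120066, minus strand, at -210: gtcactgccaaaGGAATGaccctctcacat
Ankrd1, chr19:36119950-36119979, minus strand, at -123: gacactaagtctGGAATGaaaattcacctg
Axl, chr7:25788949-25788978, minus strand, at -233: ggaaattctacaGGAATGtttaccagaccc
Amotl2, chr9:102717727-102717756, minus strand, at -65: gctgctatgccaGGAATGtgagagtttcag
Lats2, chr14:57746102-57746131, minus strand, at 5: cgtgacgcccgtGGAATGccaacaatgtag
Yap1, chr9:8004720-8004749, minus strand, at -141: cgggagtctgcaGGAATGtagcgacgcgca
Wwtr1, chr3:57576029-57576058, minus strand, at -136: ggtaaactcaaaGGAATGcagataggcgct

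The Cyr61 and Ankrd1 windows are given whole, as those of 2 target genes with a match and with fitted responses of different size below. Whether the match has a part in the responses was not tested. They run 5′ to 3′ on the gene's own strand, with the match in capitals.
Cyr61, chr3:145649936-145650235, minus strand: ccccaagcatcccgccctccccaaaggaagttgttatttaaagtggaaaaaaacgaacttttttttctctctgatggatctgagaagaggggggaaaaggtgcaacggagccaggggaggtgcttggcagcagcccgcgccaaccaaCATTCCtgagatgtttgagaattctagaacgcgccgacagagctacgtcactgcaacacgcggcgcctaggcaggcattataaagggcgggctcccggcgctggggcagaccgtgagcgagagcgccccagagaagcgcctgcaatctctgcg
Ankrd1, chr19:36119795-36120094, minus strand: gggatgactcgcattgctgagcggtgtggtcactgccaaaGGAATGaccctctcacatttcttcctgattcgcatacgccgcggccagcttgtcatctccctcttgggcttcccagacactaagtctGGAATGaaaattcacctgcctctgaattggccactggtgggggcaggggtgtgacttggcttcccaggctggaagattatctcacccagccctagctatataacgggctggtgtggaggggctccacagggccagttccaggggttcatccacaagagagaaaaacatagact
The core of the interferon-stimulated response element, on either strand, was in 1 of the 9 windows (the second start of Lats2) and in 3.44% of all windows. The CArG box, bound by serum response factor, was in 0 of the 9 windows and in 1.63% of all windows. None of these motifs overlapped another in the 9 windows. A match is a description of the letters and does not show binding.

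The libraries held 7935961 to 17596498 counts assigned to genes, and the 9 genes had between 194 and 12489 counts each per library. In each of the 3 pairs the SPT6 siRNA library was the shallower one. Supt6 itself, which encodes SPT6, stood at 108 and 88.4 CPM (read counts scaled to the size of the library) with SPT6 siRNA and IFN-beta, against 177 and 189 CPM with control siRNA and IFN-beta (log2 difference -0.90 ± 0.18; edgeR, adjusted p = 0.247). Fibroblast marker genes (9 of 9 detected) summed to 7538 to 10211 CPM with SPT6 siRNA and IFN-beta, against 11953 to 14563 CPM with control siRNA and IFN-beta, and 8 of the 9 had fitted differences below 0 (median -0.47). With IFN-beta, macrophage markers summed to 11.5 to 13.4 CPM with SPT6 siRNA against 3.8 to 6.4 CPM with control siRNA, endothelial markers to 3.36 to 5.91 against 1.6 to 3.99 CPM, and epithelial markers to 0.816 to 0.957 against 0.534 to 0.602 CPM, with Epcam at 0 in every library. In these sums Cd68 stood at 7.75 and 9.92 CPM with SPT6 siRNA against 2.71 and 2.2 CPM with control siRNA. Vwf stood at 1.73 and 4.09 against 0.828 and 0.356 CPM, and the endothelial sums overlapped. Of the tested macrophage markers, 3 had fitted differences above 0 and 1 (Lyz2) below. Of the tested endothelial markers, 1 was above 0 and 1 (Tek) below. The part of these marker differences in the results was not tested. In bulk RNA, fewer cells with a transcript and less of it per cell cannot be told apart. Nothing in the labels ties the replicates to separate cultures, and the spread behind each p-value may therefore be technical.

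SPT6 siRNA and control siRNA were first compared in IFN-beta treated cells, the comparison with 2 libraries on each side. Ctgf was lower with SPT6 siRNA in both libraries, at 0.579 times its control level, and Ankrd1 and Amotl2 also lay below both control libraries. Yap1 lay slightly above them. Cyr61, Axl, Lats2, Wwtr1 and Tead1 overlapped between the siRNAs. None of the 9 differences passed the test over all genes, in which edgeR's quasi-likelihood test called 0 of 13185 genes (0%). At an unadjusted p under 0.05 edgeR gave 1538 genes, and DESeq2 called 62 genes and limma-voom 0. With a block for replicate number edgeR called 2 of the 9, Ctgf and Ankrd1. That fit called a similar share of all genes, whose count is given in the last section.

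**Figure D1:**
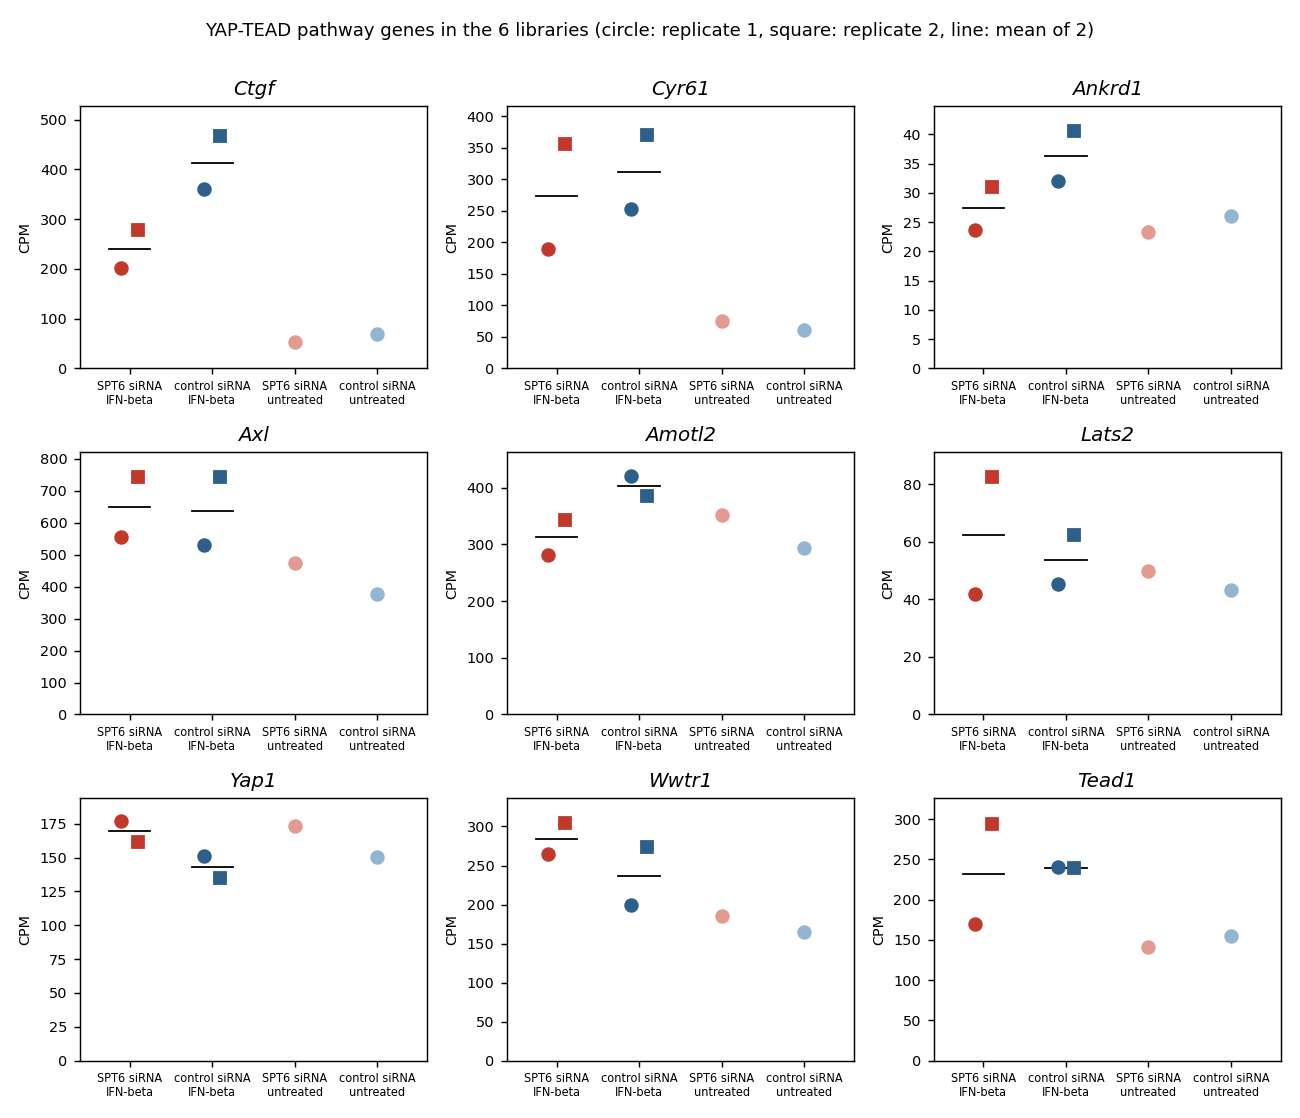
Normalised counts (CPM, linear axes from 0) of the 9 genes in each of the 6 libraries, with circles for replicate 1, squares for replicate 2 and a line at the mean of the 2 IFN-beta libraries. Ctgf and Cyr61 are far higher in the IFN-beta libraries, and the SPT6 siRNA points of Ctgf (202 and 278 CPM) lie below both control siRNA points (360 and 468 CPM).

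Among the targets, Ctgf (chromosome 10, 24595442 to 24598683, plus strand, GRCm38) encodes a secreted CCN-family protein of the matrix. It stood at 202 and 278 CPM with SPT6 siRNA and IFN-beta, against 360 and 468 CPM with control siRNA and IFN-beta. The means were 240 ± 53.7 CPM and 414 ± 76.3 CPM (SD, n = 2 each), and the 2 groups did not overlap. The log2 difference was -0.79 ± 0.23 (SE), with an unadjusted p = 0.0117 and an adjusted p = 0.35 in the edgeR test. Ctgf was thus the 1 gene of the 9 with an unadjusted p under 0.05, where 4.31% of all genes were lower and 7.36% higher at that level. DESeq2 and limma-voom each called 0 of the 9 genes, and each gave 1 with an unadjusted p under 0.05. With a block for replicate number edgeR called Ctgf (adjusted p = 6.4e-06), although the labels do not tie the numbers to a shared batch. The blocked fit called many other genes too, as counted in the last section. By pair, Ctgf differed by -0.83 in replicate 1 and by -0.75 in replicate 2 on the log2 CPM scale. A noncoding transcript annotated on the opposite strand shares 665 exon bases with Ctgf, and the strand setting of the counting is not given, so its reads cannot be told apart from those of Ctgf.

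Cyr61 (chromosome 3, 145646976 to 145649981, minus strand) encodes the other classic CCN target. It stood at 190 and 356 CPM with SPT6 siRNA and IFN-beta, against 253 and 370 CPM with control siRNA and IFN-beta. Its second SPT6 siRNA library lay above the first control library, so the groups overlapped, and the log2 difference was -0.19 ± 0.34 (edgeR, adjusted p = 0.858). That difference was 0.11 without control replicate 2, 0.18 without SPT6 siRNA replicate 1 and -0.72 without SPT6 siRNA replicate 2. Unlike the values of Ctgf, those of Cyr61 therefore did not keep 1 direction when single libraries were left out. By pair, however, Cyr61 was lower with SPT6 siRNA in both, by -0.41 in replicate 1 and -0.056 in replicate 2 on the log2 CPM scale.

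Ankrd1 (chromosome 19, 36111961 to 36120099, minus strand) encodes a muscle and stress-responsive ankyrin repeat protein. It stood at 23.7 and 31.1 CPM with SPT6 siRNA and IFN-beta, against 32 and 40.7 CPM with control siRNA and IFN-beta, and the closest libraries of the 2 groups were less than 1 CPM apart. The counting intervals of those libraries, 27.9 to 34.4 CPM for SPT6 siRNA replicate 2 and 29 to 35.2 CPM for control replicate 1 (exact 95% Poisson, counting error only), overlapped. In replicate 1 the intervals were 20.7 to 26.9 CPM with SPT6 siRNA and 29 to 35.2 CPM with control siRNA. In replicate 2 they were 27.9 to 34.4 and 37.7 to 43.8 CPM, so they did not overlap within a number. By pair, Ankrd1 differed by -0.43 in replicate 1 and by -0.39 in replicate 2 on the log2 CPM scale. The log2 difference was -0.41 ± 0.23 (edgeR, adjusted p = 0.515). With a block for replicate number edgeR called it (adjusted p = 0.0462), although the labels do not tie the numbers to a shared batch.

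Amotl2 and Lats2 are targets that restrain the pathway, the first as an angiomotin-family protein that binds YAP and the second as the kinase that phosphorylates it. Amotl2 (chromosome 9, 102716672 to 102733418, plus strand) stood at 282 and 343 CPM with SPT6 siRNA and IFN-beta, against 422 and 385 CPM with control siRNA and IFN-beta. These groups did not overlap, and the log2 difference was -0.37 ± 0.19 (edgeR, adjusted p = 0.493). Lats2 (chromosome 14, 57689662 to 57758388, minus strand) stood at 42 and 82.4 CPM with SPT6 siRNA and IFN-beta, against 45.2 and 62.4 CPM with control siRNA and IFN-beta. The SPT6 siRNA libraries were the lowest and the highest of the 4, and the log2 difference of 0.21 ± 0.35 became -0.36 without SPT6 siRNA replicate 2. A second protein-coding gene annotated on the same strand shares 2955 exon bases with Lats2, so its reads are uncertain.

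Axl (chromosome 7, 25757273 to 25788705, minus strand), a receptor tyrosine kinase gene, had nearly the same levels with both siRNAs. It stood at 556 and 741 CPM with SPT6 siRNA and IFN-beta, against 529 and 741 CPM with control siRNA and IFN-beta. Its log2 difference was 0.029 ± 0.25, and it ran from -0.19 to 0.29 when single libraries were left out.

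Both co-activator genes had fitted differences above 0. Yap1 (chromosome 9, 7931999 to 8004596, minus strand) stood at 177 and 162 CPM with SPT6 siRNA and IFN-beta, against 151 and 135 CPM with control siRNA and IFN-beta. The groups did not overlap, the log2 difference was 0.24 ± 0.16 (edgeR, adjusted p = 0.595), and a noncoding transcript on the opposite strand shares 116 exon bases with the gene. Wwtr1 (chromosome 3, 57455649 to 57575910, minus strand) stood at 264 and 304 CPM with SPT6 siRNA and IFN-beta, against 199 and 273 CPM with control siRNA and IFN-beta. Its groups overlapped, and the log2 difference was 0.27 ± 0.21 (edgeR, adjusted p = 0.646).

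Tead1 (chromosome 7, 112679318 to 112906807, plus strand) encodes a DNA-binding partner of both co-activators. It stood at 169 and 294 CPM with SPT6 siRNA and IFN-beta, against 241 and 239 CPM with control siRNA and IFN-beta. The SPT6 siRNA libraries lay on either side of the control libraries, and the log2 difference of -0.048 ± 0.27 turned to 0.042 when scaled by library size only and to 0.28 without SPT6 siRNA replicate 1.

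Of the 9 genes, 3 thus had both SPT6 siRNA libraries below both control libraries and 1 had both above, where 21.3% and 22.7% of all genes did. Below 0 were 5 of the 9 differences, and 4 were above, against 52% and 48% of all genes. The median of the 9 was -0.048, against -0.017 over all 13185 genes. In untreated cells there was 1 library for each siRNA and no test. There Ctgf stood at 52.5 CPM with SPT6 siRNA against 69.8 CPM with control siRNA, and Ankrd1 at 23.3 against 26 CPM. These 2 genes were lower with SPT6 siRNA in each of the 3 pairs, as were 28.3% of all genes. Yap1 (173 CPM with SPT6 siRNA against 150 CPM with control siRNA, untreated) and Wwtr1 (186 against 165 CPM) were higher in each of the 3 pairs, as were 25.8% of all genes. Cyr61 stood at 75.5 CPM with SPT6 siRNA against 61.1 CPM with control siRNA, and Amotl2 at 351 against 294 CPM, so both lay on the other side from their IFN-beta pairs. The remaining genes stood, untreated, at 49.8 CPM with SPT6 siRNA against 43.4 CPM with control siRNA (Lats2), 473 against 378 CPM (Axl) and 142 against 155 CPM (Tead1).

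The response to IFN-beta was read against the single untreated library of each siRNA, both of which are numbered replicate 1. Ctgf and Cyr61 were several-fold higher after 4 h of IFN-beta with either siRNA, while Yap1 stood near its untreated level. With SPT6 siRNA, Ctgf had a level 4.56 times and Cyr61 3.61 times that of the untreated library. With control siRNA the ratios were 5.93 and 5.1. Neither gene passed the test over all genes in the edgeR fit, whereas DESeq2 called both in both responses. DESeq2, and edgeR without a filter on low counts, also called more of all genes than the main edgeR fit, as counted in the last section.

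With SPT6 siRNA, the log2 response of Ctgf was 2.19 ± 0.32 (SE), with both IFN-beta libraries (202 and 278 CPM) above the untreated one (52.5 CPM). The edgeR test gave it an unadjusted p = 2.8e-04 and an adjusted p = 0.174, at rank 21 of 13185 genes. The adjusted p from DESeq2 was 4e-09. Cyr61 had a response of 1.85 ± 0.46 (edgeR, adjusted p = 0.63; DESeq2, adjusted p = 4.1e-04), 1.33 in replicate 1 and 2.23 in replicate 2 on the log2 CPM scale. edgeR called 0 of the 9 genes here (0.0455% of all genes were called), limma-voom called 0, and 2 of the 9 had an unadjusted p under 0.05 in edgeR, where 3.84% of all genes were higher and 2.01% lower at that level. In 6 of the 9 genes both IFN-beta libraries lay above the untreated one, as in 34.5% of all genes, and in Amotl2 both lay below it, as in 34.6% of all genes. Above 0 were 7 of the 9 fitted responses (50.7% of all genes) and below 0 were 2 (49.3%).

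With control siRNA, the log2 response of Ctgf was 2.57 ± 0.32, with 360 and 468 CPM after IFN-beta against 69.8 CPM untreated. Its edgeR adjusted p was 0.076, at rank 20, and that of DESeq2 was 2.1e-13. The response of Ctgf ran from 2.37 to 2.74 when single libraries were left out. edgeR called Ctgf here with only the groups compared (adjusted p = 0.0313). Without a filter on low counts it called Ctgf in the response with control siRNA (adjusted p = 5.9e-04) and with SPT6 siRNA (adjusted p = 0.00266). Cyr61 had a response of 2.35 ± 0.47 (edgeR, adjusted p = 0.283), called by DESeq2 (adjusted p = 3.9e-07), and from 2.05 to 2.59 when single libraries were left out. edgeR with all libraries called 0 of the 9 genes, limma-voom 0, and 2 of the 9 had an unadjusted p under 0.05 in edgeR, where 0.137% of all genes were called and 5.29% were higher and 2.94% lower at the unadjusted level. In 8 of the 9 genes both IFN-beta libraries lay above the untreated one, as in 35.2% of all genes, and in 0 of the 9 both lay below it, as in 38.1%. Above 0 were 8 of the 9 fitted responses (49.4% of all genes) and below 0 was 1 (50.6%). The exception was Yap1, at 151 and 135 CPM with IFN-beta against 150 CPM untreated.

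**Figure D2:**
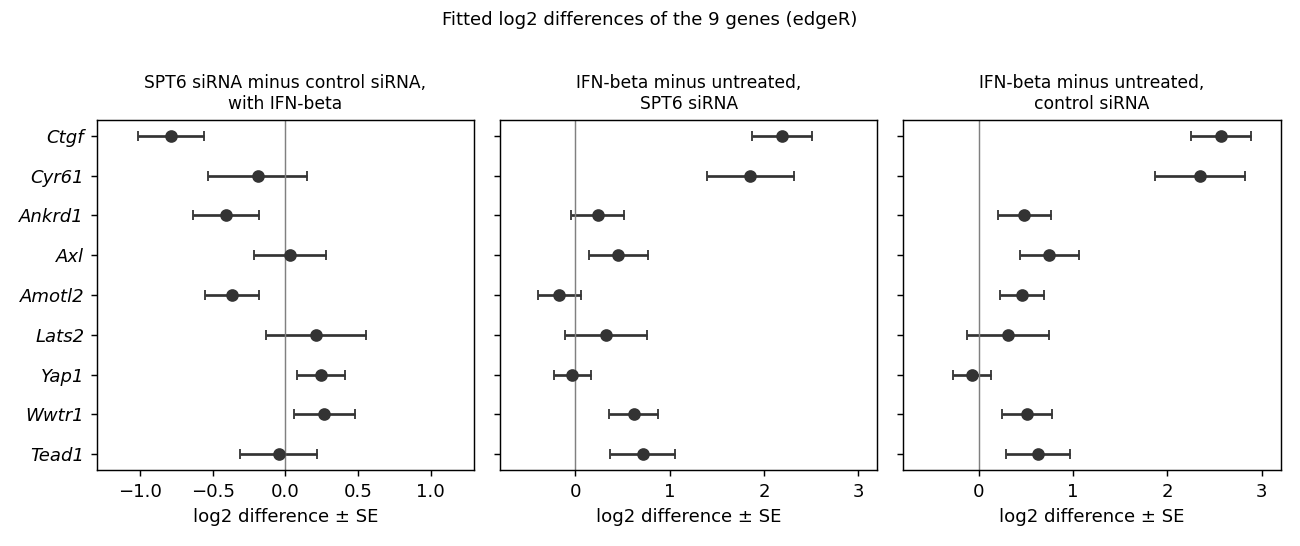
Fitted log2 differences (points) with their standard errors (bars) from edgeR for the 9 genes, with SPT6 siRNA minus control siRNA on the left and IFN-beta minus untreated for each siRNA in the middle and on the right. Ctgf (-0.79) stands furthest from 0 on the left, and Ctgf and Cyr61 stand apart from the other 7 genes in both responses.

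The remaining targets and the transcription factor genes had smaller responses, and edgeR called none of them. Axl had a log2 response of 0.45 ± 0.31 with SPT6 siRNA and 0.75 ± 0.31 with control siRNA. Wwtr1 had 0.62 ± 0.26 and 0.51 ± 0.26, and Tead1 had 0.71 ± 0.34 and 0.63 ± 0.34, in the same order. With SPT6 siRNA, Tead1 was 0.26 above its untreated library in replicate 1 and 1.05 in replicate 2 on the log2 CPM scale. Ankrd1 had 0.23 ± 0.28 with SPT6 siRNA and 0.49 ± 0.28 with control siRNA, and its 4 IFN-beta libraries lay 0.024 to 0.64 log2 CPM above their untreated libraries. Its promoter window held 2 of the GGAATG matches shown above, and that of Cyr61 held 1. The part of these matches in the responses was not tested. Lats2 had 0.32 ± 0.43 with SPT6 siRNA and 0.31 ± 0.43 with control siRNA, the first of which became -0.26 without SPT6 siRNA replicate 2. Yap1 had -0.032 ± 0.20 and -0.071 ± 0.20 with SPT6 siRNA and control siRNA, and the sign of both turned when replicate 2 of that siRNA was left out (0.017 and 0.0093).

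Amotl2 was the member whose responses pointed in opposite directions. With SPT6 siRNA it stood at 282 and 343 CPM after IFN-beta against 351 CPM untreated, a log2 response of -0.17 ± 0.23. With control siRNA it stood at 422 and 385 CPM after IFN-beta against 294 CPM untreated, a log2 response of 0.46 ± 0.23. The difference of the 2 responses was -0.63 ± 0.32 (edgeR, unadjusted p = 0.0958, adjusted p = 0.9999), so the difference between the siRNAs did not pass the test. For the other 8 genes the difference of responses ran from -0.50 (Cyr61) to 0.10 (Wwtr1), with Ctgf at -0.38 ± 0.40. edgeR called 0 of the 9 and 0 of all 13185 genes (0%) for this contrast, and DESeq2 and limma-voom likewise called 0 genes. At an unadjusted p under 0.05 there were 0 of the 9 genes and 50 of all genes in edgeR (0.296% higher, 0.0834% lower). Below 0 were 5 of the 9 differences (51% of all genes) and above 0 were 4 (49%).

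Across the 4 groups the libraries of Ctgf did not overlap: those with SPT6 siRNA and IFN-beta lay below those with control siRNA and IFN-beta, and both untreated libraries lay below all 4. In Cyr61 all 4 IFN-beta libraries lay above both untreated libraries, but the siRNAs within them did not separate. All 4 IFN-beta libraries lay above both untreated libraries in 5 of the 9 genes (Ctgf, Cyr61, Axl, Wwtr1 and Tead1) and in 13.9% of all genes. Replicate 2 was above replicate 1 in 8 of the 9 genes with SPT6 siRNA and IFN-beta (49.9% of all genes), and in 6 of the 9 with control siRNA and IFN-beta (51.9%). The steps were 0.97 and 0.46 log2 units in Lats2 and 0.91 and 0.55 in Cyr61, with SPT6 siRNA and control siRNA in that order. In these 2 genes and in Axl (0.41 and 0.49) both steps between replicates were larger than the fitted difference between the siRNAs. In Tead1 the step with SPT6 siRNA (0.80) was larger, and that with control siRNA (-0.011) was not.

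Per length, the order of the 9 genes differed between IFN-beta and untreated libraries. Axl, Cyr61 and Ctgf were the 3 highest in each of the 4 IFN-beta libraries, while Axl, Amotl2, Wwtr1 and Cyr61 led in both untreated ones. Ctgf stood at 70.4 and 97 CPM per kilobase of merged exons with SPT6 siRNA and IFN-beta, and at 126 and 163 with control siRNA and IFN-beta. Untreated, it stood at 18.4 CPM per kilobase with SPT6 siRNA, just below Yap1 (18.7), and at 24.4 with control siRNA. On the scale of CPM per kilobase of merged exons, Axl averaged 113 over the 6 libraries, Cyr61 108, Ctgf 83.2, Amotl2 55 and Wwtr1 48.5. Yap1 averaged 17.1, Tead1 15.2, Ankrd1 10.2 and Lats2 7.77 on the same scale. Wwtr1 exceeded Yap1 in every library, by 2.89 and 3.65 times with SPT6 siRNA and IFN-beta, by 2.55 and 3.92 times with control siRNA and IFN-beta, and by 2.08 and 2.13 times in untreated cells with SPT6 siRNA and control siRNA. The IFN-beta libraries thus had a higher ratio of Wwtr1 to Yap1 than both untreated libraries, and the siRNAs overlapped. Lengths come from the GENCODE annotation and not from the isoforms these cells use.

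**Figure D3:**
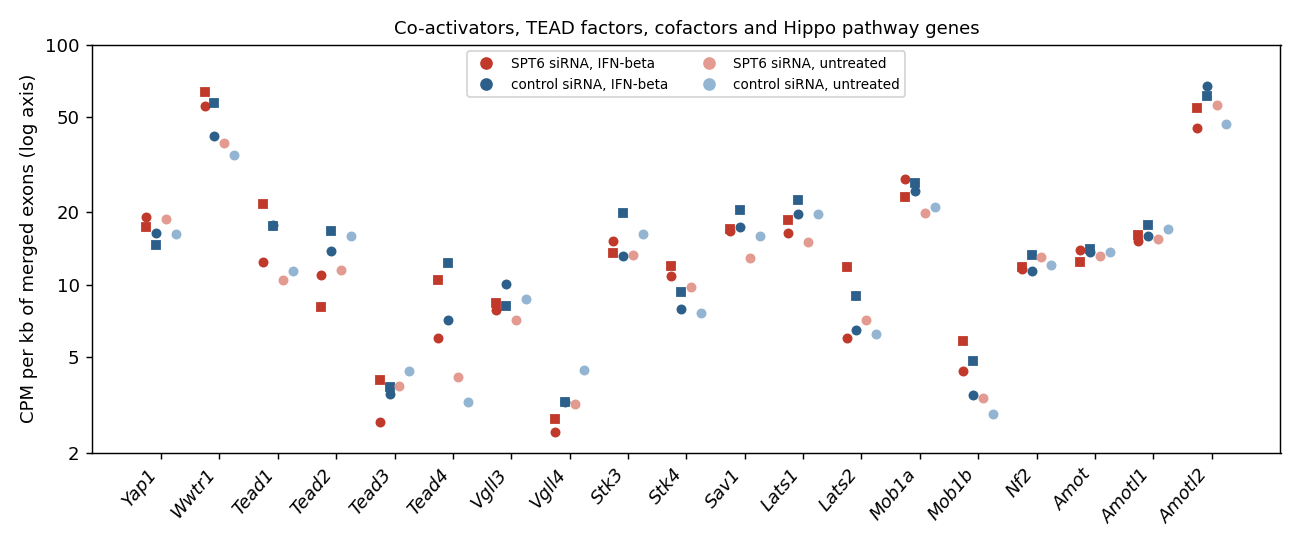
Levels per length (CPM per kilobase of merged exons, log axis) of the co-activator, TEAD, vestigial-like and Hippo pathway genes in the 6 libraries, with circles for replicate 1 and squares for replicate 2. Wwtr1 lies above Yap1 in each library, and Tead4 is higher in the 4 IFN-beta libraries (5.98 to 12.3) than in the 2 untreated ones (4.13 with SPT6 siRNA and 3.24 with control siRNA).

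The other TEAD genes encode factors that bind the same DNA sequence as TEAD1, and the vestigial-like proteins compete with YAP and TAZ for them. Of 7 genes listed, 5 were tested, and Vgll1 and Vgll2 had 0 CPM in every library. Tead1 made up 38.8% and 49% of the summed TEAD level per length with SPT6 siRNA and IFN-beta, 42% and 35% with control siRNA and IFN-beta, and 35% and 32.7% untreated with SPT6 siRNA and control siRNA. Tead2 stood at 52.7 and 38.7 CPM with SPT6 siRNA and IFN-beta, against 66.3 and 79.9 CPM with control siRNA and IFN-beta (log2 difference -0.68 ± 0.22; edgeR, unadjusted p = 0.0184, adjusted p = 0.361). It was the 1 gene of these 5 at an unadjusted p under 0.05, and all 5 differences were below 0, where 52% of all genes were. The differences were -0.33 ± 0.21 for Vgll4, -0.16 ± 0.19 for Vgll3 and -0.24 ± 0.36 for Tead4, and the list had a median of -0.24.

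Tead4 was also higher in all 4 IFN-beta libraries. It stood at 21.5 and 37.6 CPM with SPT6 siRNA and IFN-beta against 14.9 CPM untreated with SPT6 siRNA, a log2 response of 0.99 ± 0.48. With control siRNA it stood at 25.7 and 44.2 CPM with IFN-beta against 11.7 CPM untreated, a log2 response of 1.58 ± 0.49 (edgeR, unadjusted p = 0.0167, adjusted p = 0.495). Whether Tead4 responded differently from Tead1 was not tested.

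The Hippo cascade list held 23 genes of the kinases, their scaffolds and upstream regulators, all of them tested. With IFN-beta, 15 of the 23 were below 0 (52% of all genes) and 8 above in the comparison of SPT6 siRNA with control siRNA, the median was -0.071 (all genes: -0.017), and edgeR called none. The 4 with the smallest p were Dchs1, a protocadherin gene (1.24 ± 0.50, at most 2.64 CPM in any library), the atypical cadherin gene Fat4 (-0.44 ± 0.20), the MST1 kinase gene Stk4 (0.41 ± 0.18) and the kinase gene Taok2 (-0.32 ± 0.17). Dchs1 was the 1 gene of the 23 at an unadjusted p under 0.05. In the IFN-beta response, 17 of the 23 were above 0 with SPT6 siRNA (median 0.11) and 17 with control siRNA (median 0.18), as were 50.7% and 49.4% of all genes. With an unadjusted p under 0.05 in edgeR, 0 of the 23 were higher with SPT6 siRNA and 2 with control siRNA, against 3.84% and 5.29% of all genes.

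A list of 16 further targets from a published YAP/TAZ signature was read in the same way, and 15 were tested. In the IFN-beta response with SPT6 siRNA 10 of the 15 were above 0 (median 0.15), with control siRNA 7 of the 15 (median -0.015), and edgeR called none. At an unadjusted p under 0.05, 2 of the 15 were higher with SPT6 siRNA (3.84% of all genes) and 4 with control siRNA (5.29%), and none was lower (2.01% and 2.94%). One of the first pair, Nt5e, rested on 2 counts in the untreated SPT6 siRNA library. The other was Dock5, a guanine nucleotide exchange factor gene, with 0.69 ± 0.21 with SPT6 siRNA and 0.90 ± 0.21 with control siRNA. The 4 with control siRNA were Dock5, Crim1, Nuak2 and F3, the tissue factor gene. Crim1 had 0.67 ± 0.31 and 1.16 ± 0.32, Nuak2 0.82 ± 0.36 and 1.16 ± 0.36, and F3 0.62 ± 0.31 and 0.81 ± 0.31, in the same order.

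In the comparison of SPT6 siRNA with control siRNA under IFN-beta, 9 of the 15 signature genes were below 0, the median was -0.031 and edgeR called none, with 0 at an unadjusted p under 0.05. Dock5 stood at 132 and 156 CPM with SPT6 siRNA against 179 and 188 CPM with control siRNA, a log2 difference of -0.35 ± 0.17. F3 differed by -0.49 ± 0.25 and the transcription factor gene Foxf2 by 0.30 ± 0.18. Nt5e, which encodes an ectonucleotidase, differed by 1.12 ± 0.57, with at most 1.73 CPM in any library.

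The other CCN family genes encode relatives of CTGF and CYR61. Of 4 listed, 3 were tested, and the IFN-beta responses were 0.47 ± 0.20 with SPT6 siRNA and 0.34 ± 0.20 with control siRNA for Wisp1, -0.46 ± 0.26 and -0.12 ± 0.26 for Wisp2, and 0.73 ± 0.55 and 0.31 ± 0.55 for Nov. With IFN-beta, Wisp2 stood at 41 and 33.7 CPM with SPT6 siRNA against 64.7 and 49 CPM with control siRNA (log2 difference -0.61 ± 0.22; edgeR, unadjusted p = 0.0277, adjusted p = 0.377). Wisp1 differed by 0.15 ± 0.16 and Nov by 0.89 ± 0.42. edgeR called none of the 3 in any comparison.

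Actin and serum response factor targets, are known to share actin tension as an input with YAP and TAZ. Of 21 tested, 19 were below 0 with SPT6 siRNA against control siRNA under IFN-beta (median -0.64), and 8 had an unadjusted p under 0.05, all lower, against 52% of all genes below 0 and 4.31% lower at that level. They summed to 14748 to 14857 CPM with SPT6 siRNA and IFN-beta, against 19882 to 23233 CPM with control siRNA and IFN-beta. The 4 with the smallest p were Tgfb1i1 (-0.98 ± 0.21), Cnn2 (-0.87 ± 0.19), Tpm2 (-0.64 ± 0.16) and Actg2 (-2.11 ± 0.63), none of them called by edgeR over all genes. In the IFN-beta responses 20 of the 21 were above 0 with either siRNA (medians 0.38 with SPT6 siRNA and 0.77 with control siRNA), as were 50.7% and 49.4% of all genes. At an unadjusted p under 0.05, 3 of the 21 were higher with SPT6 siRNA and 10 with control siRNA, against 3.84% and 5.29% of all genes. The part of this group's difference in that of Ctgf was not tested.

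**Figure D4:**
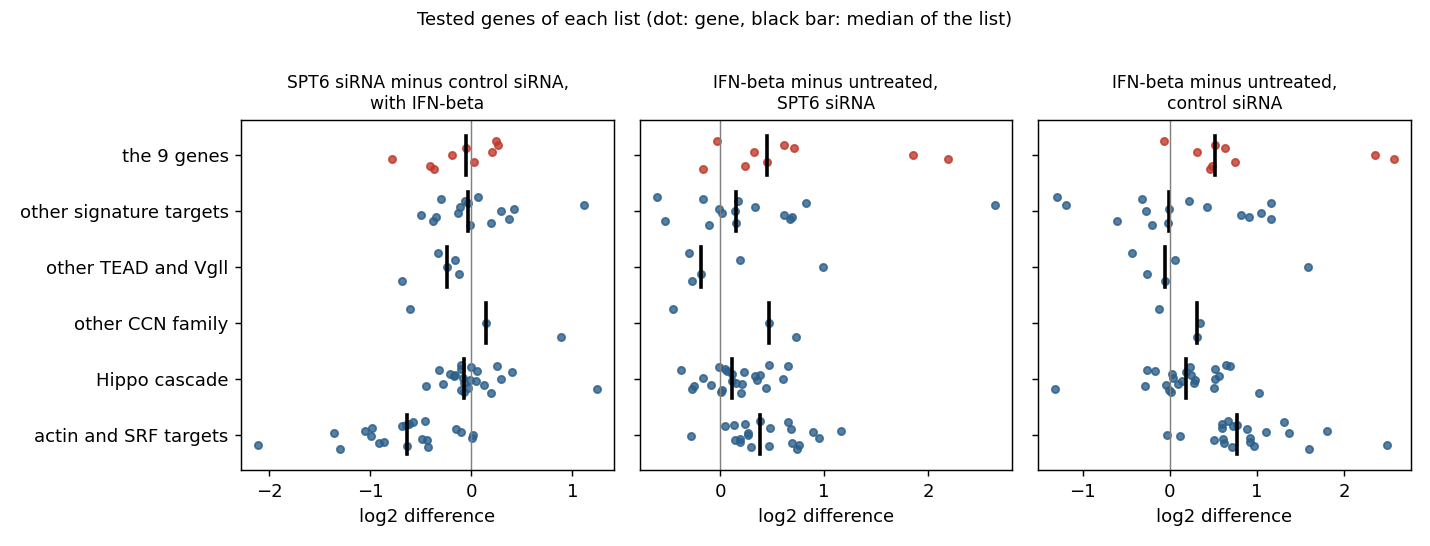
Fitted log2 differences of the tested genes of each list (dots) with the list's median (black bar), with SPT6 siRNA minus control siRNA under IFN-beta on the left and the IFN-beta responses in the middle and on the right. The median of the 9 genes is -0.048 on the left, against -0.64 for the actin and serum response factor targets.

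Among the genes whose levels followed Ctgf most closely over the 6 libraries were Timp1, Hes1, Dock5 and Dlx1, out of 9726 genes with an average log2 CPM of 3 or more. Their Pearson correlations of log2 CPM with Ctgf were 0.998, 0.996, 0.994 and 0.993 in that order, and Spearman's rho was 1 for each. The 6 points share their groups and sequencing depth, so the values describe this ranking only. Timp1, an inhibitor of matrix metalloproteinases, stood at 156 and 178 CPM with SPT6 siRNA and IFN-beta, 223 and 260 CPM with control siRNA and IFN-beta, and 74.6 and 90.9 CPM untreated with SPT6 siRNA and control siRNA. Hes1, a transcriptional repressor gene, stood at 9.48 and 12.5 CPM, 16.5 and 19.5 CPM, and 3.96 and 5.09 CPM in the same order. Of these genes, Dock5 belongs to the YAP/TAZ signature. Among the 9 genes, Cyr61 had the highest Pearson correlation with Ctgf, 0.954 (Spearman's rho 0.886), at rank 112. Ankrd1 had the highest Spearman's rho, 0.943 (Pearson 0.805), and Yap1 was the lowest with -0.49 (Spearman's rho -0.54).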

How the data were processed

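RNA of 6 NIH3T3 libraries in 4 groups was counted per gene by the authors, and the deposited values are raw whole-number read counts for 24062 gene symbols. TopHat2 2.1.0, HTSeq 0.6.1p1 and DESeq2 are named, per the submitters' processing notes, with the builds mm10 and GRCm38 and no roles. The annotation and the strand setting are not given in the sources used here. Counts assigned to genes made up 32.9% to 38% of each library's total, and lines naming no gene were left out.

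Genes were kept by edgeR's filterByExpr with a count minimum of 10 (13185 genes). A quasi-likelihood model (edgeR 4.0.16, R 4.3.3; TMM factors, glmQLFit with the robust option, glmQLFTest) was fitted to 4 group means over all 6 libraries. Its 2 residual degrees of freedom come from the replicated groups, and an untreated library, being single, was taken to vary as they do. P-values were adjusted by Benjamini-Hochberg over all genes tested, with a threshold of 0.05. The standard error of a log2 difference was obtained by dividing it by the root of its F statistic. Log2 CPM used a prior count of 2. Alternatives were DESeq2 1.42.0, limma-voom (limma 3.58.1), other scalings and filters, only the groups compared, a replicate block and leaving out each replicate. The fit was tested on simulated counts. Positions and merged exon lengths came from GENCODE for GRCm38 (107 of 107 symbols matched), promoters from RefSeq. Counting intervals cover counting error only.

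The members, the gene lists and the tests were chosen with earlier results of these data known. Named genes were Supt6, the 9 members, up to 4 genes of each further list with the smallest p for SPT6 siRNA against control siRNA with IFN-beta, and the 5 genes most like Ctgf, of which 1 is not reported here. Epcam was named as a defining marker, and Crim1 and Nuak2 for their IFN-beta responses with control siRNA.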

Additional observations from a re-analysis of the deposited data

Results flagged for a closer look

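Cyr61 and Amotl2 were picked out because their SPT6 siRNA libraries lay on opposite sides of control siRNA in untreated and in IFN-beta treated cells. For Cyr61 the log2 CPM difference was 0.30 in the untreated pair, against -0.41 and -0.056 in the 2 IFN-beta pairs. The difference of its responses was -0.50 ± 0.60 (SE) and was not called (edgeR quasi-likelihood test, adjusted p = 0.9999). For Amotl2 the difference was 0.26 in the untreated pair, against -0.58 and -0.17 in the IFN-beta pairs. Its IFN-beta response was below 0 in both libraries with SPT6 siRNA (-0.32 and -0.036) and above 0 in both with control siRNA (0.52 and 0.39), each against 1 untreated library. The difference of the responses of Amotl2 was -0.63 ± 0.32, which edgeR did not call either (unadjusted p = 0.0958, adjusted p = 0.9999).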

How the results depend on the processing

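Of 432 values of the 9 genes under alternatives, 390 kept both direction and side of the threshold, 19 became called and 23 changed sign. The main edgeR fit and DESeq2 were each run on 13185 genes. The count of all genes called for SPT6 siRNA against control siRNA with IFN-beta, 0, became 66 without a filter and 62 with DESeq2, and stayed at 0 in each fit with 1 library left out. For the IFN-beta response with SPT6 siRNA the count of 6 became 12 by library size only, 46 without a filter, 3 with the stricter filter, 129 with DESeq2, 0 with limma-voom, 14 with only the groups compared, and 9 to 25 with 1 library left out. With control siRNA the count of 18 became 77, 7, 204, 5 and 34 without a filter, with the stricter filter, DESeq2, limma-voom and only the groups compared, and 16 to 52 with 1 library left out. The cause was not tested.

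Replicate numbers are not said to mark a shared batch, and over genes the step between numbers correlated at 0.56 between the 2 IFN-beta groups. With a replicate block the counts, of 13185 genes tested, were 2638 for SPT6 siRNA with IFN-beta (3245 over 3 matched pairs). They were 545 and 957 for the responses with SPT6 and control siRNA, and 4 for their difference. Under the replicate block Ctgf (-0.79, adjusted p = 6.4e-06) and Ankrd1 (-0.41, adjusted p = 0.0462) were called lower with SPT6 siRNA by edgeR, as they were over 3 matched pairs (-0.68 and -0.33), and Ctgf and Cyr61 were called in both responses. The block turned Lats2 to -0.10 and Yap1 to 0.042 in the response with SPT6 siRNA, Lats2 to -0.064 and Yap1 to 0.0018 in that with control siRNA, and Lats2 to -0.039 in the difference of responses.

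Other changes of sign were all in values that edgeR did not call. Tead1 became 0.042 by library size only, and the difference of responses of Lats2 became -0.048 with limma-voom. With 1 library left out, SPT6 siRNA against control siRNA with IFN-beta ran from -0.72 to 0.18 for Cyr61, -0.36 to 0.60 for Lats2, -0.19 to 0.29 for Axl and -0.51 to 0.28 for Tead1. The responses with SPT6 siRNA ran from -0.26 to 0.72 for Lats2 and -0.10 to 0.017 for Yap1, and that of Yap1 with control siRNA from -0.17 to 0.0093. The differences of responses ran from -0.58 to 0.38 for Lats2, -0.40 to 0.39 for Tead1, -0.086 to 0.35 for Wwtr1 and -0.061 to 0.15 for Yap1. The shallowest member value was the 194 counts of Ankrd1 in the untreated SPT6 siRNA library.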
